A study of Homo sapiens with 4 samples.

Results

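C1QTNF1 to C1QTNF7 encode C1q/TNF-related proteins. These 7 genes, out of 2864 genes with values, were taken by name from the deposited table of 4 A375 libraries. The table holds 10 C1QTNF genes, and C1QTNF8, C1QTNF9 and C1QTNF9B are given below among the relatives. The 7 members were selected by name with no threshold on a value. The set itself was chosen with its reads and TPM in these 4 libraries known, so the levels below are a description and carry no test. A375 is an established human melanoma cell line with a BRAF mutation, and vemurafenib (VEM) is an inhibitor of the BRAF kinase. The libraries were untreated parental cells (A375P), a vemurafenib-resistant strain kept continuously in rising concentrations of the drug (A375R), A375 given 1‰ of the solvent DMSO for 48 h (A375+DMSO) and A375 given 2 μM of the drug for 48 h (A375+VEM). All carried the genotype label wild type and the same batch label. A375R was a strain raised from 1 cell line in culture, and nothing in the sources used here says whether it was a clone. Each condition had 1 library, so differences between libraries have no replicate check, and intervals at 95% cover counting error only. The authors deposited whole-number read counts and TPM, in which the count is corrected for gene length and for library size. Of the pairs compared below, the resistant pair is A375R against A375P, the acute pair A375+VEM against A375+DMSO and the solvent pair A375+DMSO against A375P. The table held part of each library, with 2054277 reads for A375P, 1963230 for A375R, 1891215 for A375+DMSO, 1932550 for A375+VEM, and 8.48% to 8.94% of the TPM. Where 4 values follow each other without names, they are in this order.

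The C1q/TNF-related proteins, also called CTRPs, are secreted paralogs of the fat hormone adiponectin. Most carry a signal peptide, a collagen-like stretch and a globular C1q domain at the end, and assemble as trimers and larger complexes. They are best known from adipose tissue, muscle, cartilage and the eye as circulating or local signals in metabolism, inflammation and matrix biology. The collagen-like stretch is the part by which the members can be compared at the level of sequence. It is a run of repeats of 3 amino acids, each opening with glycine, which is coded by GGN. The longest uninterrupted run of such codons was read from the coding sequence of 1 principal transcript per gene in GENCODE 29 (GRCh38). Its first 8 repeats are shown here, 5′ to 3′ on the coding strand, with the GGN codons in capitals. C1QTNF4 had no longer run than the one shown.
C1QTNF1: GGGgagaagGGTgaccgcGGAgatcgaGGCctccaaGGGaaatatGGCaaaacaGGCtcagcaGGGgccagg
C1QTNF2: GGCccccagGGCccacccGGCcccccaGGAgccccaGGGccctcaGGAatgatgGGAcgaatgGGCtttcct
C1QTNF3: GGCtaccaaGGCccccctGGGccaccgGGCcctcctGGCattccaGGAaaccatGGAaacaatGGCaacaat
C1QTNF4: GGCctgctgGGCccagcg
C1QTNF5: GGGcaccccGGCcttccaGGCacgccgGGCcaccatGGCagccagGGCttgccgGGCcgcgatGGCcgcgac
C1QTNF6: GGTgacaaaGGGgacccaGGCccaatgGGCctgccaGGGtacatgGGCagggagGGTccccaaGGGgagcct
C1QTNF7: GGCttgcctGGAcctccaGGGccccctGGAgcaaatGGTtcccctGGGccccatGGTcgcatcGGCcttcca

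The run had 34 repeats in C1QTNF2 and in C1QTNF7, 23 in C1QTNF5, 21 in C1QTNF3, 14 in C1QTNF1 and in C1QTNF6, and 2 in C1QTNF4. C1QTNF4 is known as the family member without a collagen domain, and its coding sequence of 987 bases was among the longer ones of the 7, which ran from 729 bases in C1QTNF5 to 990 in C1QTNF2. On GRCh38 the stretches shown lie in coding exons, at chr17:79046694-79047608 (plus strand) for C1QTNF1, chr5:160354823-160354894 (minus) for C1QTNF2, chr5:34033433-34035692 (minus) for C1QTNF3, chr11:47590775-47590792 (minus) for C1QTNF4, chr11:119340239-119340310 (minus) for C1QTNF5, chr22:37182665-37185218 (minus) for C1QTNF6 and chr4:15435855-15435926 (plus) for C1QTNF7. Those of C1QTNF1, C1QTNF3 and C1QTNF6 cross an intron.

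C1QTNF1 and C1QTNF6 carried most of the signal of the 7 members in all 4 libraries. The summed level of the 7 members was 9.77, 22.6, 15.4 and 68.3 TPM. C1QTNF1 and C1QTNF6 together made up 87.3%, 94.7%, 84.5% and 96.2% of that sum. C1QTNF3 reached 1 TPM in A375+DMSO and A375+VEM, and C1QTNF2, C1QTNF4, C1QTNF5 and C1QTNF7 stayed under 1 TPM everywhere. In bulk RNA, a higher level in each cell and a larger share of cells with the gene cannot be told apart. The plot of TPM by member and library shows this gap between C1QTNF1 and C1QTNF6 and the rest.

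**Figure D1:**
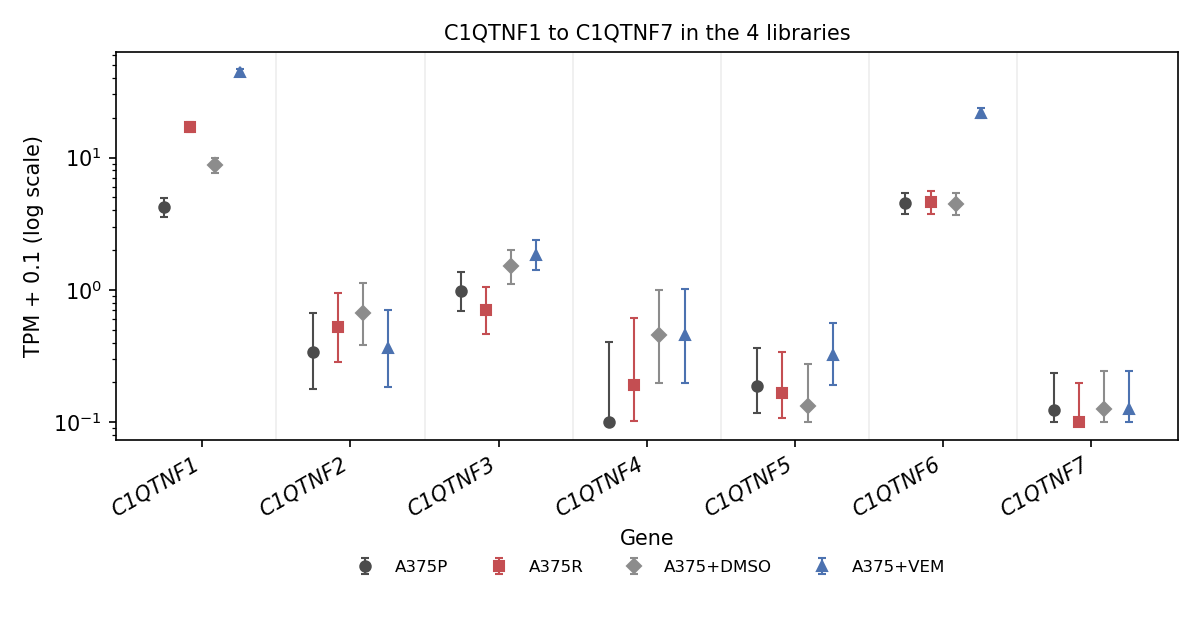
TPM + 0.1 on a log axis for the 7 members in the 4 libraries, 1 library per condition, with bars that give exact 2-sided 95% Poisson intervals of the reads, which for 0 reads reach 3.69 reads, above the limit of 3 reads used in the text. C1QTNF1 and C1QTNF6 were highest in A375+VEM, at 44.0 and 21.7 TPM, while C1QTNF2, C1QTNF4, C1QTNF5 and C1QTNF7 lay under 1 TPM in every library.

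C1QTNF1 (NCBI gene 114897) encodes CTRP1, a secreted glycoprotein studied in metabolism and in vessels. In the authors' coordinates, on hg19 per the submitters' processing notes, it lies at chr17:77019016-77045870 on the plus strand, with a gene length of 3711 bases. Counts were 131 for A375P, 486 for A375R, 256 for A375+DMSO, 1297 for A375+VEM, which is 4.12, 16.9, 8.63 and 44.0 TPM. Each library was apart from its neighbour in the order A375P, A375+DMSO, A375R and A375+VEM. A375R was 4.11-fold above A375P (95% interval 3.38 to 5.02). A375+VEM was 5.10-fold above A375+DMSO (4.46 to 5.86). The libraries without vemurafenib also differed, with A375+DMSO 2.09-fold above A375P (1.69 to 2.61). Against A375+DMSO in place of A375P, A375R was 1.96-fold higher (1.68 to 2.29), and the ratio of A375R to A375+VEM was 0.384 (0.346 to 0.427). So A375R and A375+VEM each held more C1QTNF1 in TPM than A375P and A375+DMSO did, and A375+VEM held the most. Whether the drug was the cause was not tested.

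C1QTNF6 (NCBI gene 114904) encodes CTRP6, a secreted member linked to complement control and to fat tissue. It lies at chr22:37576206-37584330 on the minus strand of hg19, with a gene length of 2936 bases. Its reads numbered 111 for A375P, 102 for A375R, 103 for A375+DMSO, 505 for A375+VEM, which is 4.41, 4.49, 4.39 and 21.7 TPM. The first 3 of these levels could not be told apart by their counts, and only A375+VEM stood away from them. The ratio was 1.02 in the resistant pair (95% interval 0.770 to 1.34), 1.02 for A375R against A375+DMSO (0.770 to 1.36) and 0.994 in the solvent pair (0.753 to 1.31). It was 4.94 in the acute pair (3.99 to 6.16), and 4.91 for A375+VEM against A375P (3.99 to 6.09).

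Between these genes, the level of C1QTNF1 in TPM was 0.934 times that of C1QTNF6 in A375P and 3.77 times in A375R, and under DMSO and acute vemurafenib it was 1.97 and 2.03 times. Thus the proportion was alike in A375+DMSO and A375+VEM, with both genes about 5 times higher in A375+VEM. The proportion was largest in the resistant strain, where C1QTNF1 was higher than in A375P and C1QTNF6 was not. Of the members, C1QTNF6 has its promoter in the RefSeq table used here and C1QTNF1 is not among the 5 matched. The 250 bases before the start of C1QTNF6, at chr22:37199424-37199673 on the minus strand of GRCh38.p14, are shown because this gene separated A375+VEM from the other libraries, with CG pairs in capitals.
C1QTNF6 promoter: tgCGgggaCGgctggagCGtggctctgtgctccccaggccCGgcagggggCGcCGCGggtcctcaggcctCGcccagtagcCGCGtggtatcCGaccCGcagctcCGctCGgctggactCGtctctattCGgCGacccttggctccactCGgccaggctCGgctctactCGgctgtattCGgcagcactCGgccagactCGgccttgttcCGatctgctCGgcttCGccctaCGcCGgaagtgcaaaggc

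The authors' interval of C1QTNF6 spans 8125 bp and the gene in GENCODE 29 spans 19219 bp, so the start behind this window may lie outside the gene as the authors counted it. The window holds 28 CG pairs, more than 84.1% of 35116 windows of the same length before RefSeq starts, whose median was 11. The windows of the other members matched held 13 pairs in C1QTNF2, 5 in C1QTNF3 and in C1QTNF5, and 1 to 5 in the 3 windows of C1QTNF7. C1QTNF1 and C1QTNF4 had no window, and a relation of CG pairs to level was not tested. The C1QTNF5 window, at chr11:119346706-119346955 on the minus strand, lies just before MFRP, which runs from 119338942 to 119346673 in GENCODE 29, and away from C1QTNF5, which starts at 119340940 there on the same strand, so it may not be the promoter of C1QTNF5 alone. Neither the AP-1 letters TGANTCA (6.57% of all windows, both strands) nor the TEAD letters GGAATG (11.9%, both strands) were in any of the 7 windows of these 5 genes, which says only that these letters are not there.

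C1QTNF3 (NCBI gene 114899) encodes CTRP3, or cartonectin, an adipokine first found in cartilage. It lies at chr5:34017963-34043371 on the minus strand of hg19 and had 29 reads for A375P, 18 for A375R, 43 for A375+DMSO, 53 for A375+VEM, which is 0.884, 0.608, 1.41 and 1.74 TPM. Its lowest library was A375R, unlike C1QTNF1. No neighbours in the order A375R, A375P, A375+DMSO and A375+VEM were apart by their counts, since the interval of each of these ratios held 1. The resistant pair had a ratio of 0.687 (95% interval 0.359 to 1.28), the solvent pair one of 1.59 (0.970 to 2.64) and the acute pair one of 1.24 (0.814 to 1.90). Across the order the libraries did separate, with A375R at 0.432 of A375+DMSO (0.235 to 0.766) and at 0.348 of A375+VEM (0.192 to 0.604). A375+VEM was also 1.97-fold above A375P (1.23 to 3.22).

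The gene overlaps an annotated read-through transcript, C1QTNF3-AMACR, at chr5:33987091-34124633 on the same strand, and AMACR, a racemase of branched-chain fatty acid breakdown, lies 9743 bp away. C1QTNF3-AMACR had 159, 1189, 839 and 194 reads, with the highest number in A375R. AMACR had 265, 1953, 1279 and 290 reads. The read-through row thus ran beside AMACR, at 0.600, 0.609, 0.656 and 0.669 reads per AMACR read, and not beside C1QTNF3, where it had 5.48, 66.1, 19.5 and 3.66 reads per read. AMACR and the read-through row had their most reads where C1QTNF3 had its fewest, in A375R. How the counting shared reads between overlapping genes is not given in the sources used here, so the read-through row is uncertain and was not counted as C1QTNF3.

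**Figure D2:**
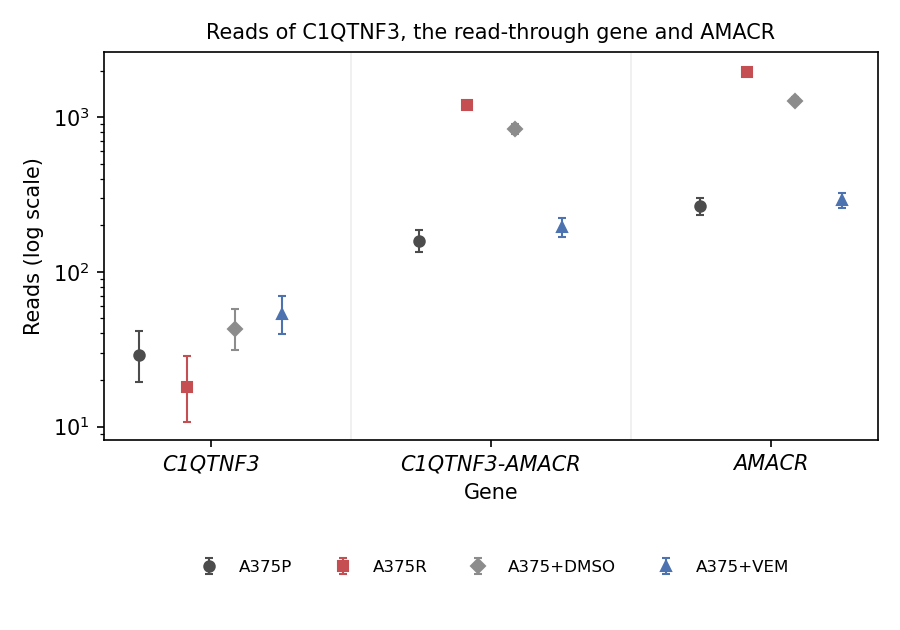
Reads on a log axis for C1QTNF3, the read-through gene and AMACR in the 4 libraries, with exact 95% Poisson intervals. The read-through gene and AMACR both peaked in A375R, at 1189 and 1953 reads, where C1QTNF3 had its lowest number, 18.

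The other 4 members were at the edge of detection. C1QTNF2, at chr5:159774761-159797648 on hg19, had 5, 8, 11 and 5 reads, and never more than 0.571 TPM. C1QTNF4, at chr11:47611216-47615961, had 0, 1, 4 and 4 reads, where 0 reads in A375P allow a level of up to 0.248 TPM (3 reads). C1QTNF5, whose product is known from the retinal pigment epithelium and from a late retinal degeneration, had 3, 2, 1 and 7 reads at chr11:119209644-119217383. That interval spans 7740 bp against 2002 bp for C1QTNF5 in GENCODE 29, where MFRP, which was not analysed here, overlaps it on the same strand, so reads of MFRP could be among these. C1QTNF7, at chr4:15341560-15447791, had 1, 0, 1 and 1 reads, and its 0 in A375R allows up to 0.080 TPM (3 reads). Among these 4 genes no ratio in any pair of libraries had an interval that left out 1, so differences between libraries were not detectable at this depth.

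A gene was called past the threshold when its ratio of (TPM + 0.1) exceeded 1.5-fold, among genes with at least 1 TPM in 1 of the 2 libraries compared, a scale that understates the change of low genes. In the resistant pair, 2 of 7 members could be compared, and C1QTNF1 was above the threshold and C1QTNF6 was not, where 26.8% of 1689 genes were above it and 17.5% were below it. In the acute pair, 3 members could be compared, and C1QTNF1 and C1QTNF6 were above and C1QTNF3 was not, where 26.5% of 1784 genes were above and 19.7% below. In the solvent pair, C1QTNF1 and C1QTNF3 of 3 members were above, where 26.8% of 1720 genes were above and 18.9% below. The call of C1QTNF3 there was lost with a pseudocount of 1, with a threshold of 2-fold and with each of 3 other scalings, where its log2 ratio was 0.52 to 0.54, and with a TPM of at least 5 it was not compared. No member was below in these pairs. For A375R against A375+DMSO, C1QTNF1 was above, C1QTNF3 below and C1QTNF6 neither, where 10.5% of 1702 genes were above and 9.99% below. With 2 or 3 members compared, these counts are not read as a result about the family. C1QTNF3 entered the solvent pair and the pair of A375R and A375+DMSO only through its level in A375+DMSO, so its calls there are partly set by the filter. Over all genes compared, the median log2 ratio was 0.10 in the resistant, 0.11 in the acute and 0.09 in the solvent pair. The log2 ratio of C1QTNF1 was above that of 95.7% of genes compared in the resistant pair and of 97.5% in the acute pair, and that of C1QTNF6 above 45.3% and 97.3%. A375P serves as control in 2 of these pairs and A375+DMSO in 2, so the pairs are not independent.

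**Figure D3:**
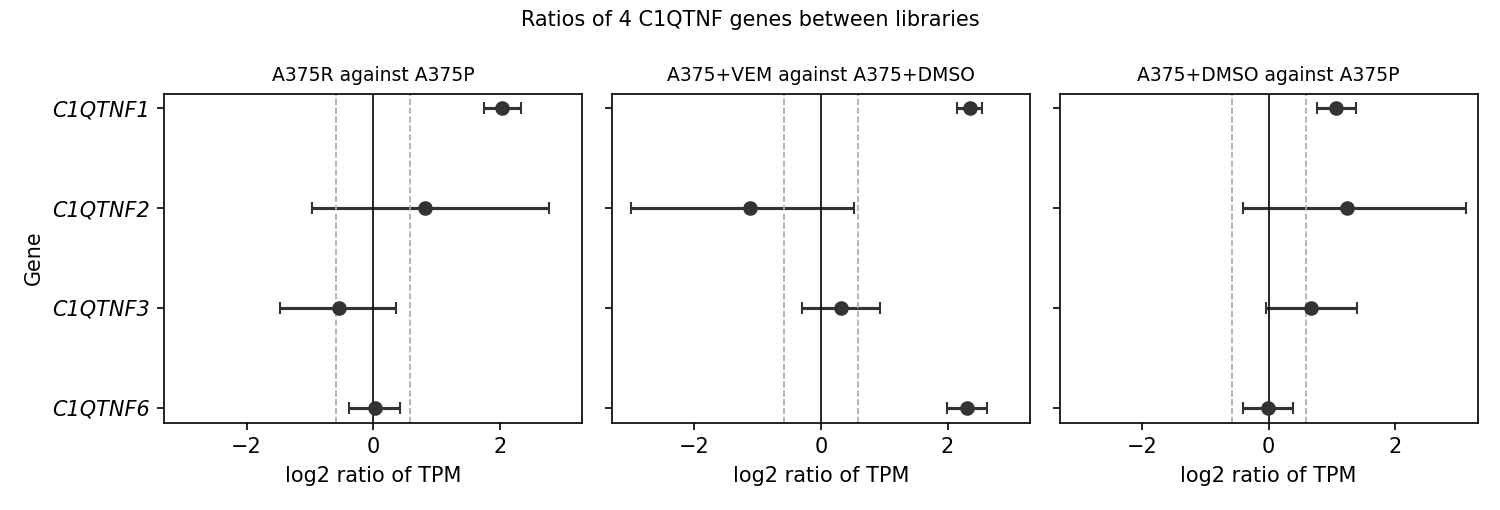
Log2 ratios of TPM for the 4 members with at least 5 reads in every library, in the 3 pairs, with exact 95% intervals on the reads of both libraries. Dashed lines mark 1.5-fold, and the intervals of C1QTNF1 lie to the right of 0 in each pair, while that of C1QTNF6 does so in the acute pair alone.

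**Figure D4:**
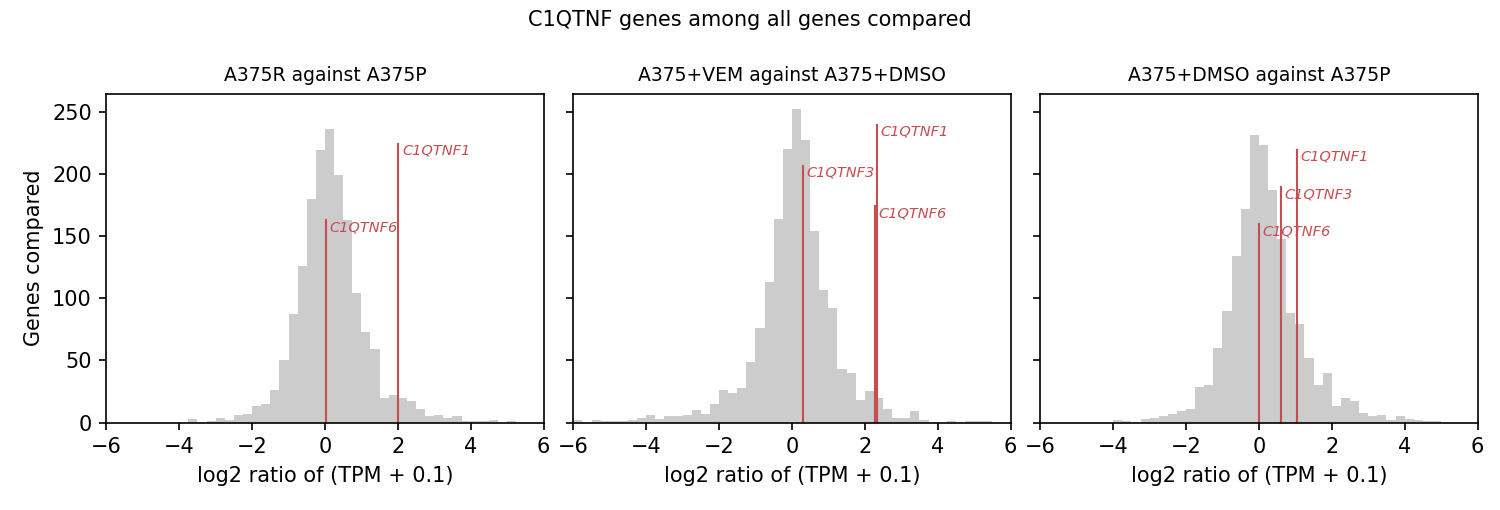
Number of genes by log2 ratio of (TPM + 0.1) in the 3 pairs, in bins of 0.25, with red lines, whose height carries no value, at the members that could be compared. C1QTNF1 and C1QTNF6 lie together in the right tail of A375+VEM against A375+DMSO, at 2.34 and 2.28.

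To see which other genes had the same course over the libraries, 1566 protein-coding genes with a mean of at least 1 TPM were ranked by their Euclidean distance from each member in log2(TPM + 0.1), centred on each gene's mean over the 4 libraries. The genes nearest to C1QTNF1 were AIM2, a sensor of DNA in the cytosol, at 0.35, ANGPTL4, a secreted inhibitor of lipoprotein lipase, at 0.71, and ADAMTS7, a secreted metalloproteinase, at 0.71, where the median gene was at 2.50. AIM2 had 2.52, 8.01, 5.65 and 25.3 TPM, so it kept the order of C1QTNF1. Nearest to C1QTNF6 were AMY2B, an amylase with near-identical copies whose count is uncertain, at 0.27, C3AR1, the receptor for complement fragment C3a, at 0.29, and C1S, a protease of the C1 complex, at 0.40. The median gene was at 2.03 from C1QTNF6. C3AR1 had 17, 16, 12 and 88 reads and reached 1 TPM only in A375+VEM, so it entered the ranking through that library. C1QTNF6 itself ranked at 88 from C1QTNF1. C10orf95, BRSK2 and BBOF1 were nearest to C1QTNF3, at 0.15, 0.21 and 0.27. These are descriptions over 4 libraries.

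Few of the members' relatives with a C1q domain could be compared. Of 25 such genes on a list, 11 are in the table, and 8 of these never had more than 4 reads, among them the adiponectin gene ADIPOQ, the C1q chains C1QA, C1QB and C1QC, and C1QTNF8 and C1QTNF9. C1QL1 and C1QL4, which encode secreted C1q-like proteins known from synapses, could be compared in each pair. C1QL1 had 10, 44, 77 and 43 reads. C1QL4 had 5, 52, 85 and 34 reads. Both were lowest in A375P and highest in A375+DMSO, so that they were past 1.5-fold upward in the resistant pair and downward in the acute pair. Of all genes compared, 26.8% were above in the resistant pair and 19.7% below in the acute pair. With 0.778 TPM for C1QL1 and 0.283 TPM for C1QL4 in A375P, both passed the filter in the resistant pair only through A375R. An upward direction there was thus set by the filter. The ratio in the acute pair was 0.562 for C1QL1 (95% interval 0.378 to 0.827) and 0.403 for C1QL4 (0.262 to 0.606), whereas it was 5.10 for C1QTNF1. Against A375+DMSO in place of A375P, A375R was lower in both genes, at 0.590 for C1QL1 (0.398 to 0.866) and 0.632 for C1QL4 (0.439 to 0.903), so the upward direction rests on A375P. The third relative compared there, C1QTNF9B, had 4 reads in A375+DMSO and 15 in A375+VEM, a ratio of 3.78 (1.20 to 15.6), passed the filter only through A375+VEM, so that an upward direction was set by it, and shares near-identical sequence with C1QTNF9, so its count is uncertain.

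Genes of the C1 complex, which starts the classical complement pathway when C1q binds, were read beside the members. A likeness of this list to the members was not tested. C1R, C1S, C1RL and C1QBP are the 4 of 6 listed genes that are in the table. C1R, a protease of that complex, had 44, 228, 317 and 970 reads. C1S had 24, 27, 27 and 99 reads, which is the course of C1QTNF6. In the acute pair C1R was 3.08-fold higher (95% interval 2.71 to 3.51), C1S 3.69-fold (2.39 to 5.88) and the protease-like C1RL 1.76-fold (1.57 to 1.97). Of 1784 genes compared in that pair, 26.5% were above 1.5-fold and 19.7% below. C1QBP, a mitochondrial protein that binds the head of C1q, went the other way, from 6345 to 3266 reads, a ratio of 0.518 (0.497 to 0.541). In the resistant pair, C1R and C1RL were above 1.5-fold, where 26.8% of 1689 genes were. Against A375+DMSO none of the 4 was past it in either direction, where 20.5% of 1702 genes were, and the ratio of C1R was 0.743 (0.624 to 0.884). C1QTNF1 was above 1.5-fold in A375R against both libraries without vemurafenib.

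ADIPOR1 and ADIPOR2, the adiponectin receptors, were among the 7 of 16 listed receptor and adaptor genes in the table, and 5 of the 7 could be compared. ADIPOR1 had 155, 148, 151 and 172 TPM, and ADIPOR2 63.5, 74.4, 75.3 and 92.7 TPM. None of the 5 was past 1.5-fold in the acute pair, where 26.5% of genes were above and 19.7% below. In the resistant pair, ADGRB2, an adhesion receptor, was 4.14-fold higher (95% interval 3.59 to 4.78) and APPL2, an adaptor of the adiponectin receptors, 1.59-fold (1.43 to 1.77). Of 1689 genes compared in that pair, 26.8% were above 1.5-fold. Against A375+DMSO neither ADGRB2 nor APPL2 was past it, where 20.5% of 1702 genes were. ADGRB3, the receptor of the C1q-like proteins, had 31, 42, 42 and 29 reads and stayed under 1 TPM. Among the listed kinases and enzymes that adiponectin-like signals act on, ACACB, the mitochondrial acetyl-CoA carboxylase, stood apart, with 80, 419, 469 and 771 reads. Its ratio was 5.80 (4.56 to 7.46) in the resistant pair, 0.923 (0.807 to 1.06) for A375R against A375+DMSO, and 1.66 (1.47 to 1.86) in the acute pair. AKT1, AKT2 and ACACA were not past 1.5-fold in the resistant or the acute pair.

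**Figure D5:**
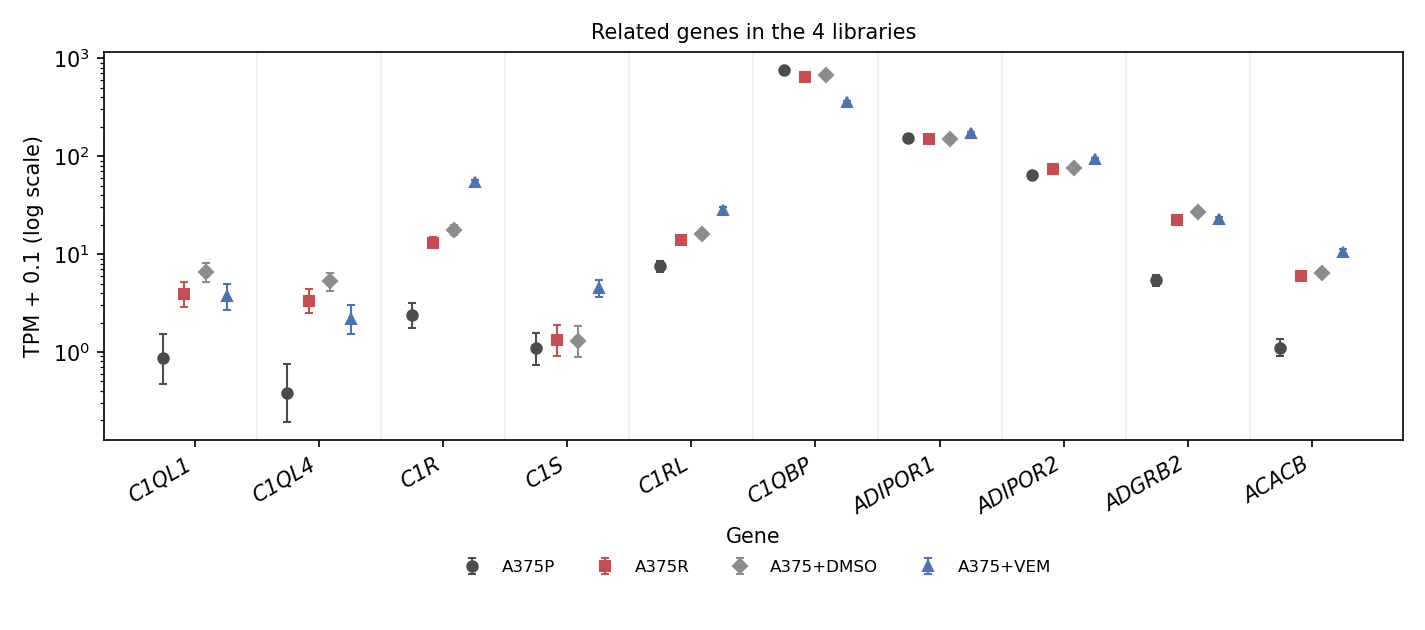
TPM + 0.1 on a log axis for related genes in the 4 libraries, with exact 95% Poisson intervals of the reads. C1R had 2.27 TPM in A375P and 53.9 TPM in A375+VEM, C1QL1 and C1QL4 were highest in A375+DMSO, and ADIPOR1 lay between 148 and 172 TPM.

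Since several CTRPs are best known from fat and connective tissue, markers of other cell types were read in the same libraries. Of 14 melanocyte-lineage markers 6 are in the table, with a summed level of 55.7, 79.7, 42.0 and 69.8 TPM. The sum was led by BCAN in A375P, by BCL2A1 in A375R and by ACP5 in A375+DMSO and A375+VEM, while ABCB5 had at most 6 reads. MITF, SOX10 and PMEL were not analysed here. Of 7 adipocyte markers 5 are in the table, at a sum of 4.34, 0.864, 0.977 and 2.09 TPM, led by AOC3, with ADIPOQ at 0 reads in 3 libraries and 1 read in A375P. The 4 macrophage markers in the table, of 6 listed, had 2, 6, 2 and 4 reads in all, with C1QA at 0, and 2 B cell markers, of 4 listed, had 0, 11, 6 and 6. The 3 endothelial markers in the table, of 5 listed, summed to 11.1, 9.67, 2.82 and 2.73 TPM, nearly all from ADGRL4. The 4 fibroblast or pericyte markers, of 6 listed, summed to 92.6, 35.1, 28.7 and 41.1 TPM, nearly all from ACTA2, which cultured cells of many types express. Each of the larger sums was led by 1 or 2 genes, and single markers were highest in A375+VEM as C1QTNF1 and C1QTNF6 were. Among them were APOD of the melanocyte list with 28, 4, 16 and 106 reads, ABCA8 of the fibroblast list with 10, 3, 13 and 47 reads and AQP7 of the adipocyte list with 3, 2, 1 and 14 reads. They are named with their values seen, and also highest there were ACP5 with 185, 218, 318 and 497 reads and BIRC7 with 3, 1, 9 and 18 reads. Other markers of these lists were highest elsewhere. Among them were BCAN with 1183, 866, 498 and 543 reads, AOC3 with 144, 15, 21 and 40 and ACTA2 with 1468, 503, 420 and 591. BCL2A1 had 62, 274, 32 and 61 reads, and ACVR1C had 2, 13, 21 and 3. The part of other cell types in the members' levels was not tested.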

How the data were processed

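RNA of 4 A375 libraries, 1 per condition, was sequenced, and conditions were taken from the labels. The submitters' processing notes name HISAT, HISAT2, TopHat2, Bowtie2 and hg19, without roles or versions. The counting program and its strand setting are not given in the sources used here. The authors deposited whole-number read counts and TPM (count over gene length, scaled per library over all its genes). One incomplete row was left out. Gene positions are the authors'. With 1 library per condition no test was run. Pairs were compared by the ratio of (TPM + 0.1), with at least 1 TPM in 1 library and 1.5-fold as the threshold. Ratios given with intervals are of TPM, with exact Clopper-Pearson intervals on the reads. Members and lists were chosen with earlier results of these data known, and the motifs, CG counts and coding runs were added after seeing the files. All members, and every gene of the lists past 1.5-fold or at 10 TPM or above, could be named, as could genes within 10 kb of a member and the 3 nearest in pattern. One gene that this rule names is not reported here. The ratio step was tested on simulated data with counting error only, which cannot speak to variation between libraries. Coding sequence came from GENCODE 29 and promoters from RefSeq (GRCh38.p14), and no position was converted between builds. Alternatives covered pseudocounts, filters, scaling, threshold and control. TMM factors came from edgeR 4.0.16 and size factors from DESeq2 1.42.0 in R 4.3.3. Other steps ran in Python 3.11.15 with scipy 1.17.1.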

Additional observations from a re-analysis of the deposited data

Results flagged for a closer look

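Some genes beside the family were past 1.5-fold one way in the resistant pair and the other way in the acute pair. As each condition had 1 library, this difference was not tested. In log2 ratios of (TPM + 0.1), AMACR was at 3.01 and -2.12 and the read-through gene C1QTNF3-AMACR at 3.02 and -2.09, while with A375+DMSO as the control A375R was at 0.66 for AMACR and at 0.55, under 1.5-fold, for the read-through gene. C1QL1 was at 2.15 and -0.81, and C1QL4 at 3.13 and -1.27, and with A375+DMSO as the control of A375R these genes were at -0.75 and -0.65, so that the opposite directions rest on A375P. In the resistant pair C1QL1 and C1QL4 reached 1 TPM only in A375R, so their upward direction there was set by the filter. C1QTNF9B-AS1, which overlaps C1QTNF9B and was named after its values were seen, was at -1.71 and 1.34, on 13 and 3 reads in A375P and A375R and on 7 and 19 in A375+DMSO and A375+VEM. It reached 1 TPM only in its higher library of each pair, so these directions are partly set by the filter. Of the members, C1QTNF1 and C1QTNF6 were compared in both pairs and did not do so, while C1QTNF2, under the filter with 5 to 11 reads, was at 0.63 and -0.89 with intervals that held 1.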

How the results depend on the processing

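The count of members above 1.5-fold stayed within 1.5 times of its value in 18 of 26 recomputed counts, and in the solvent pair in 1 of 8. The count below was 0 in each pair and stayed at 0 in 24 of 26. C1QTNF1 and C1QTNF6 were above 1.5-fold in A375+VEM against A375+DMSO under every alternative, with log2 ratios from 2.19 to 3.39 and from 2.07 to 2.30, and C1QTNF1 was above it in A375R with log2 ratios from 0.96 to 2.04. The lowest of these for A375R, 0.96, came with A375+DMSO as the control, where 1 member, C1QTNF3, was below 1.5-fold. The highest for A375+VEM, 3.39, came with A375P as the control. With no filter on low values, a setting that admits members with few reads, 3 members were above in A375R against A375P, 1 was below in A375+VEM against A375+DMSO and 4 were above in A375+DMSO against A375P. In the solvent pair 1 member, C1QTNF1, was above with a pseudocount of 1, a threshold of 2-fold or each of the 3 other scalings, and also with a TPM of at least 5, where C1QTNF3 was not compared. The 3 scalings moved the median log2 ratio of all genes in A375+VEM against A375+DMSO from 0.11 to between -0.04 and 0.00, and the share of changed genes that were higher there went from 57.3% to 47.5% with TMM. No result changed sign among the called ratios of members. No paired analysis was possible because each condition had 1 library, and for the same reason no library could be left out. The reads of C1QTNF2, C1QTNF4, C1QTNF5 and C1QTNF7, at most 11 in a library, limit any statement on them.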
